A study of Homo sapiens with 8 samples.

Results

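The loci described here lie around 4 genes, NTSR1, AMHR2, GREB1L and B3GAT1, beside which H3K27ac rose most in A549 cells given siRNA against NRF2. H3K27ac is histone H3 acetylated at lysine 27. Peaks of all libraries were merged into 49186 regions, and the 39 regions that overlapped a gene body or the 100 kb on either side of it were kept. For B3GAT1 the flanks were 600 kb, so that its 2 distant regions fell inside. The loci were chosen by the measured rises themselves: 5 of the 39 regions, called the chosen regions below, had the 5 largest rises of the whole comparison, so their values are given as a description and no test is applied to them. The other 34 regions are their neighbours, with 6 in the NTSR1 window, 12 in the AMHR2 window, 8 in the GREB1L window and 8 in the B3GAT1 window. The question asked of them was whether the promoters and neighbours of these loci rose too.

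A549 is a human lung adenocarcinoma line with a KEAP1 mutation, which keeps NRF2 active, and every library came from this line. Cells were transfected with control siRNA in 3 experiments and with NRF2 siRNA in 3, harvested after 48 hours and subjected to chromatin immunoprecipitation with the anti-H3K27ac antibody MABI0309 and sequencing. Replicate 1 of the knockdown received siRNA 28 and the other 2 siRNA 30, so the siRNA and the replicate cannot be told apart. The control lists held 27941, 34747 and 41571 peaks and the NRF2 siRNA lists 23885, 34986 and 39108. Read depth is not given in the lists. The epithelial keratin and adhesion genes KRT8, KRT18 and CDH1 had a peak at a start in all 6 libraries and the blood-cell genes PTPRC and CD3E in none. At the start of NFE2L2, the gene of NRF2, the percentile defined below was 97.9, 98.1 and 98.2 in control and 94.6, 97.9 and 96.8 in NRF2 siRNA libraries (limma, adjusted p = 0.602), and since siRNA acts on RNA this says nothing of the knockdown.

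H3K27ac is laid down by the acetyltransferases CBP and p300 and marks active promoters and enhancers, the latter often far from the gene they serve. NRF2 binds with small MAF proteins to the antioxidant response element, recruits these acetyltransferases and is held low by KEAP1 in normal cells. NTSR1 is the G protein-coupled receptor of the peptide neurotensin, and AMHR2 is the type II serine/threonine kinase receptor of anti-Müllerian hormone. GREB1L is a relative of the estrogen-induced GREB1 and is needed for kidney and inner ear development, and B3GAT1 is the glucuronyltransferase that makes the HNK-1 (CD57) carbohydrate epitope.

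The sequences of 3 of the 5 chosen regions, and of the 1 neighbour that passed the test, are shown because they carry the acetylation at issue. Each is the central 300 bases of the longest stretch covered by a peak in all 3 NRF2 siRNA libraries, on the plus strand of GRCh37. Capitals mark letters of 3 searched motifs on either strand: the antioxidant response element core TGANNNNGC, the AP-1 motif TGANTCA and the C/EBP motif TTGCNNAA, of which no 2 overlapped here. The first, chr20:61371547-61371846, lies in an intron of NTSR1. The second, chr11:134795696-134795995, and the third, chr11:134800158-134800457, are intergenic upstream of B3GAT1, and the last, chr20:61335627-61335926, is the neighbour upstream of NTSR1.
NTSR1 intron: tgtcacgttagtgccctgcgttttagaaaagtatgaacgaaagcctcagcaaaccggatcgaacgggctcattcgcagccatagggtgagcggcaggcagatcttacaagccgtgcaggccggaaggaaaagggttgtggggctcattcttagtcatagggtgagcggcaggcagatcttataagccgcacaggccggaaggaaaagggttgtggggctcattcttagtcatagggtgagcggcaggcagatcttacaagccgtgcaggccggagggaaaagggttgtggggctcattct
B3GAT1 upstream, nearer: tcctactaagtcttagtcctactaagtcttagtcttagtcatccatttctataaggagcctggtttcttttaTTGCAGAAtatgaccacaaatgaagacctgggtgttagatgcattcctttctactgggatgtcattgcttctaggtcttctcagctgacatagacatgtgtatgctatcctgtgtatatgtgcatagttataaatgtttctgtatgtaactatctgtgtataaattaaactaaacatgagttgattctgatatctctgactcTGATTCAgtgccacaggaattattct
B3GAT1 upstream, farther: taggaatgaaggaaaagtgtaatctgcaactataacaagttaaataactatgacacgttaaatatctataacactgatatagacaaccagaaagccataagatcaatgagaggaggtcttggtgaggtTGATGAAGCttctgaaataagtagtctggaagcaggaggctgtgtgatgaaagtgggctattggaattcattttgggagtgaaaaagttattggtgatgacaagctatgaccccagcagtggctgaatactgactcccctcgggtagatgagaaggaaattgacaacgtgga
NTSR1 upstream neighbour: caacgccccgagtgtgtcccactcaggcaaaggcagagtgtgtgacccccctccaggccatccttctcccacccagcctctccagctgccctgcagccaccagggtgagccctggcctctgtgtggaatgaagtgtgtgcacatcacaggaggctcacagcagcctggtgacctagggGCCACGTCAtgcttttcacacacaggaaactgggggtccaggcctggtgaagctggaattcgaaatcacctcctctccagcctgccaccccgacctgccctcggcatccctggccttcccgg

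The 3 chosen windows shown shared no searched motif. The core element was found in 1 of them, the farther B3GAT1 window, and in 41.3% of the 17869 windows of the same length taken in the same way from all tested regions. The nearer B3GAT1 window held 1 AP-1 and 1 C/EBP motif, which 21.3% and 14.2% of all windows held. The NTSR1 neighbour held 1 core element, and the NTSR1 intron window held none of the 3 motifs. A match is a run of letters only and absence is absence from 300 bases only.

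Base composition and repeats differed among the 3 windows. GC content was 55.0% in NTSR1, 40.3% in the farther and 36.3% in the nearer B3GAT1 window, against a median of 48.3% over all windows. CpG dinucleotides numbered 16, 3 and 0 in the same order, against a median of 4. The NTSR1 window was a tandem repeat: shifted by 75 bases it matched itself at 73.3% of positions, a match reached by 0.0616% of all windows. The chosen GREB1L region held repeated sequence of another kind. Of the 508 stretches of 32 bases in the 539 bases shared by its peaks, 46.3% occurred once in GRCh37 and the most frequent occurred 87769 times, whereas the shares in the other 4 chosen regions ran from 89.5% to 99.1% and those in the 14 neighbours that had such a shared stretch from 66.6% to 100%. The authors removed reads of low mapping quality, and the part of repeated sequence in the values below was not tested.

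Each region was placed in each library by its percentile, the percent of that library's own peaks whose fold enrichment was below the highest of the region, with ties split evenly. This was done because the lists differ in length and their fold values were not set on a common scale. To compare groups, the 32673 regions with a peak in 3 or more libraries, 25 of them in the windows, were ranked in each library. The ranks were turned into normal scores, where 1 unit is 1 SD only if no ranks are tied. Regions with no peak were tied, 8990 in control replicate 1 and 13096 in NRF2 siRNA replicate 1, the most of each group. A region with no peak took the lowest tied rank, whose score was -1.09, -1.70 and -2.15 in the control and -0.84, -1.63 and -2.01 in the NRF2 siRNA libraries, so a region absent from both libraries of pair 1 still showed a change of 0.25 in that pair. Over all tested regions the median change, NRF2 siRNA minus control siRNA, was 0.02 and the 95th percentile 0.88.

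The region in the NTSR1 intron, at chr20:61370311-61373101 and 31.5 kb downstream of the gene start, was not called in any control library and reached the 58.7th, 80.0th and 78.5th percentile in NRF2 siRNA replicates 1, 2 and 3. Its fold enrichment there was 4.17, 6.78 and 6.64. The groups did not overlap, and replicate 1, the only siRNA 28 library, was the lowest of the 3. The score rose by 2.35 ± 0.28 (SE, n = 3 and 3), and by 1.70, 2.53 and 2.82 in pairs 1, 2 and 3.

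The AMHR2 region, at chr12:53820123-53823874, was the only chosen region called in all 6 libraries. It covers coding and untranslated exons within the gene body, its centre 4.36 kb from the gene start. Its percentile was 27.1, 8.05 and 19.2 in control and 93.3, 91.2 and 83.9 in NRF2 siRNA libraries, so a weak peak became one of the stronger peaks of each list. Its peak was also longer in every NRF2 siRNA library, at 2181, 3601 and 3052 bp against 1909, 1285 and 1179 bp in control. The change in score was 2.12 ± 0.33 (SE), with 1.85, 2.43 and 2.09 in the 3 pairs. Neither percentiles nor lengths overlapped between groups, but the region was chosen for its rise. How often lengths separate in this way over all regions was not computed.

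The GREB1L region, at chr18:18970388-18972906, lies in an intron 149 kb from the first start of the gene and also overlaps a long non-coding RNA gene, ENSG00000265751. No control library called it, and it reached the 71.0th, 67.6th and 57.1st percentile with NRF2 siRNA. The change was 2.09 ± 0.32 (SE), with 1.96, 2.14 and 2.15 in the 3 pairs. Its NRF2 siRNA scores fell from 0.87 to 0.44 and -0.0012 in replicates 1, 2 and 3. The control scores were those of regions with no peak, -1.09, -1.70 and -2.15, so the closeness of the pairs does not show an even rise. In replicate 1 it was split into peaks of 539 and 867 bp, whereas replicates 2 and 3 had single peaks of 1738 and 2478 bp.

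The 2 regions upstream of B3GAT1 lie 513 and 519 kb from its start, and both are intergenic. The farther one, chr11:134799502-134801798, showed the largest rise of all regions, from no call in any control library to the 81.6th, 78.9th and 73.9th percentile, a change of 2.47 ± 0.30 (SE) with pairs at 2.25, 2.49 and 2.66. The nearer one, chr11:134793800-134796605, was the least even of the 5. It stood at the 52.3rd percentile in control replicate 1, was not called in replicate 2 and stood at 7.19 in replicate 3, against 88.7, 89.6 and 83.2 with NRF2 siRNA. The change was 2.17 ± 0.48 (SE), and pair 1 gave 1.1 against 2.94 and 2.45 in the others.

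In all, 3 of the 5 chosen regions were called in all NRF2 siRNA and no control libraries, as 408 of the 49186 regions were (0.830%). Values just outside the choice were similar: the next rise, 2.01, lay in EML6 at chr2:55130411-55132100, which was not called in control replicate 1, stood at 28.7 and 3.91 in the other 2, and reached 61.1, 88.6 and 83.3 with NRF2 siRNA. The last region inside the choice was the GREB1L region at 2.09.

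**Figure D1:**
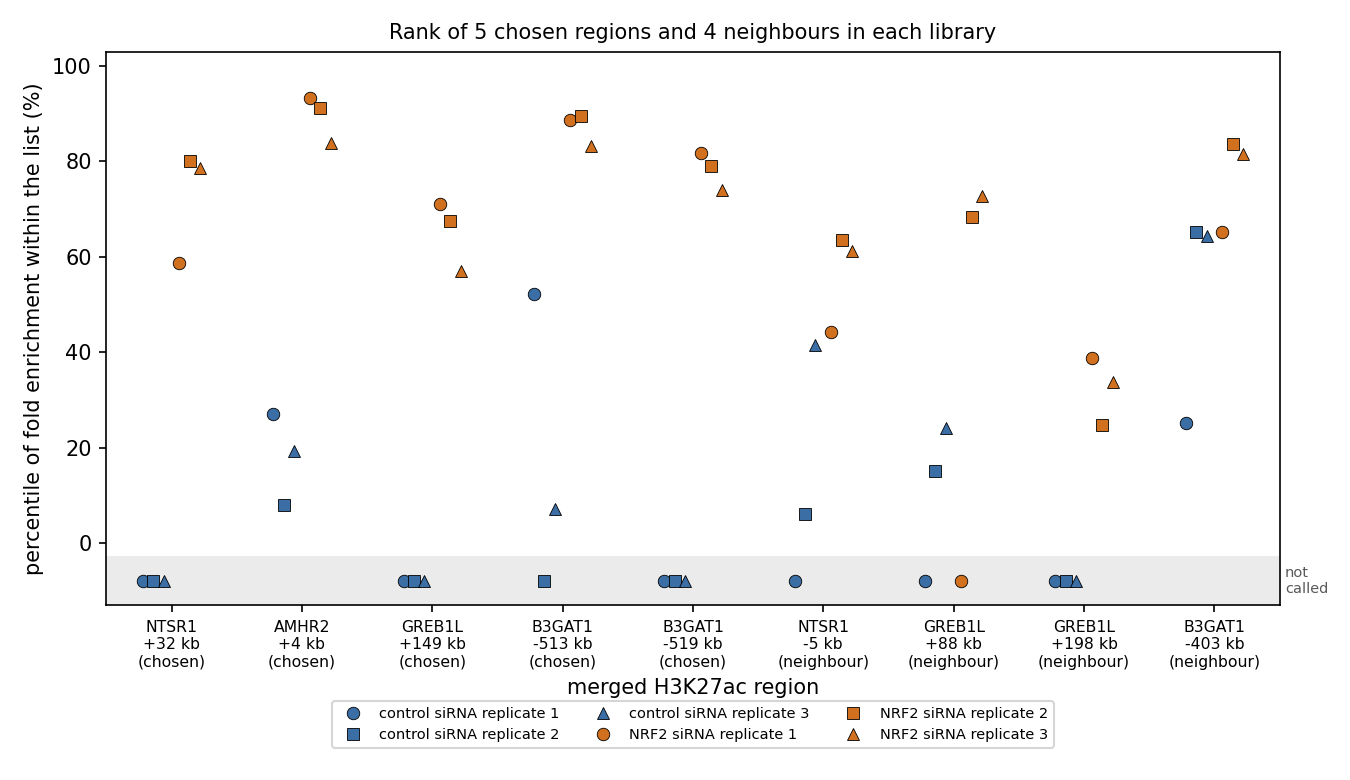
Percentile of fold enrichment within each library's own list (y axis, %) for the 5 chosen regions and for 4 neighbours with no coding start (x axis, named by distance from the gene start), with 1 point per library, control siRNA in blue and NRF2 siRNA in orange, and the grey band for regions not called. NRF2 siRNA points of the chosen regions lie between 57.1 and 93.3, above every control point of the same region.

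None of the 4 genes had a called peak at its promoter, which does not show that acetylation was absent there. Within 500 bp of any coding transcript start of NTSR1, AMHR2, GREB1L or B3GAT1 there was a peak in 0 of the 6 libraries, so no start region could be tested. For NTSR1 the nearest peak ended 85073, 4324 and 4627 bp from the start in control and 3732, 3768 and 3737 bp in NRF2 siRNA libraries. For AMHR2 the distances were 1959, 2112 and 2075 bp in control and 1892, 1374 and 1223 bp with NRF2 siRNA. This peak belonged to the chosen region in all 3 NRF2 siRNA libraries and in control replicate 1, so the AMHR2 distances rest on the choice and are a description. At NTSR1 the nearest peak lay outside the chosen region, and its distance was shorter in every NRF2 siRNA library than in any control library. In all but control replicate 1 that peak belonged to the upstream neighbour tested below, so the distances restate its calls and lengths. How often all genes show such a separation was not computed.

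For GREB1L the nearest peak was 85932, 32633 and 33011 bp from a start in control and 9341, 9132 and 9250 bp in NRF2 siRNA libraries, which did not overlap. The NRF2 siRNA peak was in each case the neighbour 198 kb from the gene start, which no control library called, so these distances restate that call. For B3GAT1 it was 138499 to 167856 bp away in control and 138663 to 168049 bp with NRF2 siRNA, and here the groups overlapped. The chosen region itself lay 30123 bp from the nearest coding start of its gene at NTSR1, 1223 bp at AMHR2, 26834 bp at GREB1L and 511664 bp at B3GAT1.

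Of the 34 neighbours, 20 could be tested, and 1 was called higher and 0 lower at an adjusted p of 0.05 (limma with Benjamini-Hochberg adjustment over all tested regions). Over all tested regions 2.01% were called higher and 3.39% lower. At an unadjusted p of 0.05, 4 neighbours were higher and 1 lower, against 3876 and 3485 of all 32673. The median change of the neighbours was -0.05, with 9 above and 11 below 0 and a range from -0.78 to 1.31. In 2 neighbours the NRF2 siRNA percentiles all lay above the control ones, as in 7.39% of all tested regions, and in 4 they all lay below, as in 12.8%. With the replicate number as a block, which pairs the libraries, 4 neighbours were called higher and 1 lower, against 5.72% and 6.62% of all tested regions. The 20 include a region 198 kb from the GREB1L start that no control library called. That region could be tested only through its NRF2 siRNA calls. It holds the highest change, 1.31, and is 1 of the 4 higher at the unadjusted threshold. It is also 1 of the 2 whose NRF2 siRNA percentiles all lay above, and 1 of the 4 called higher with the block.

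**Figure D2:**
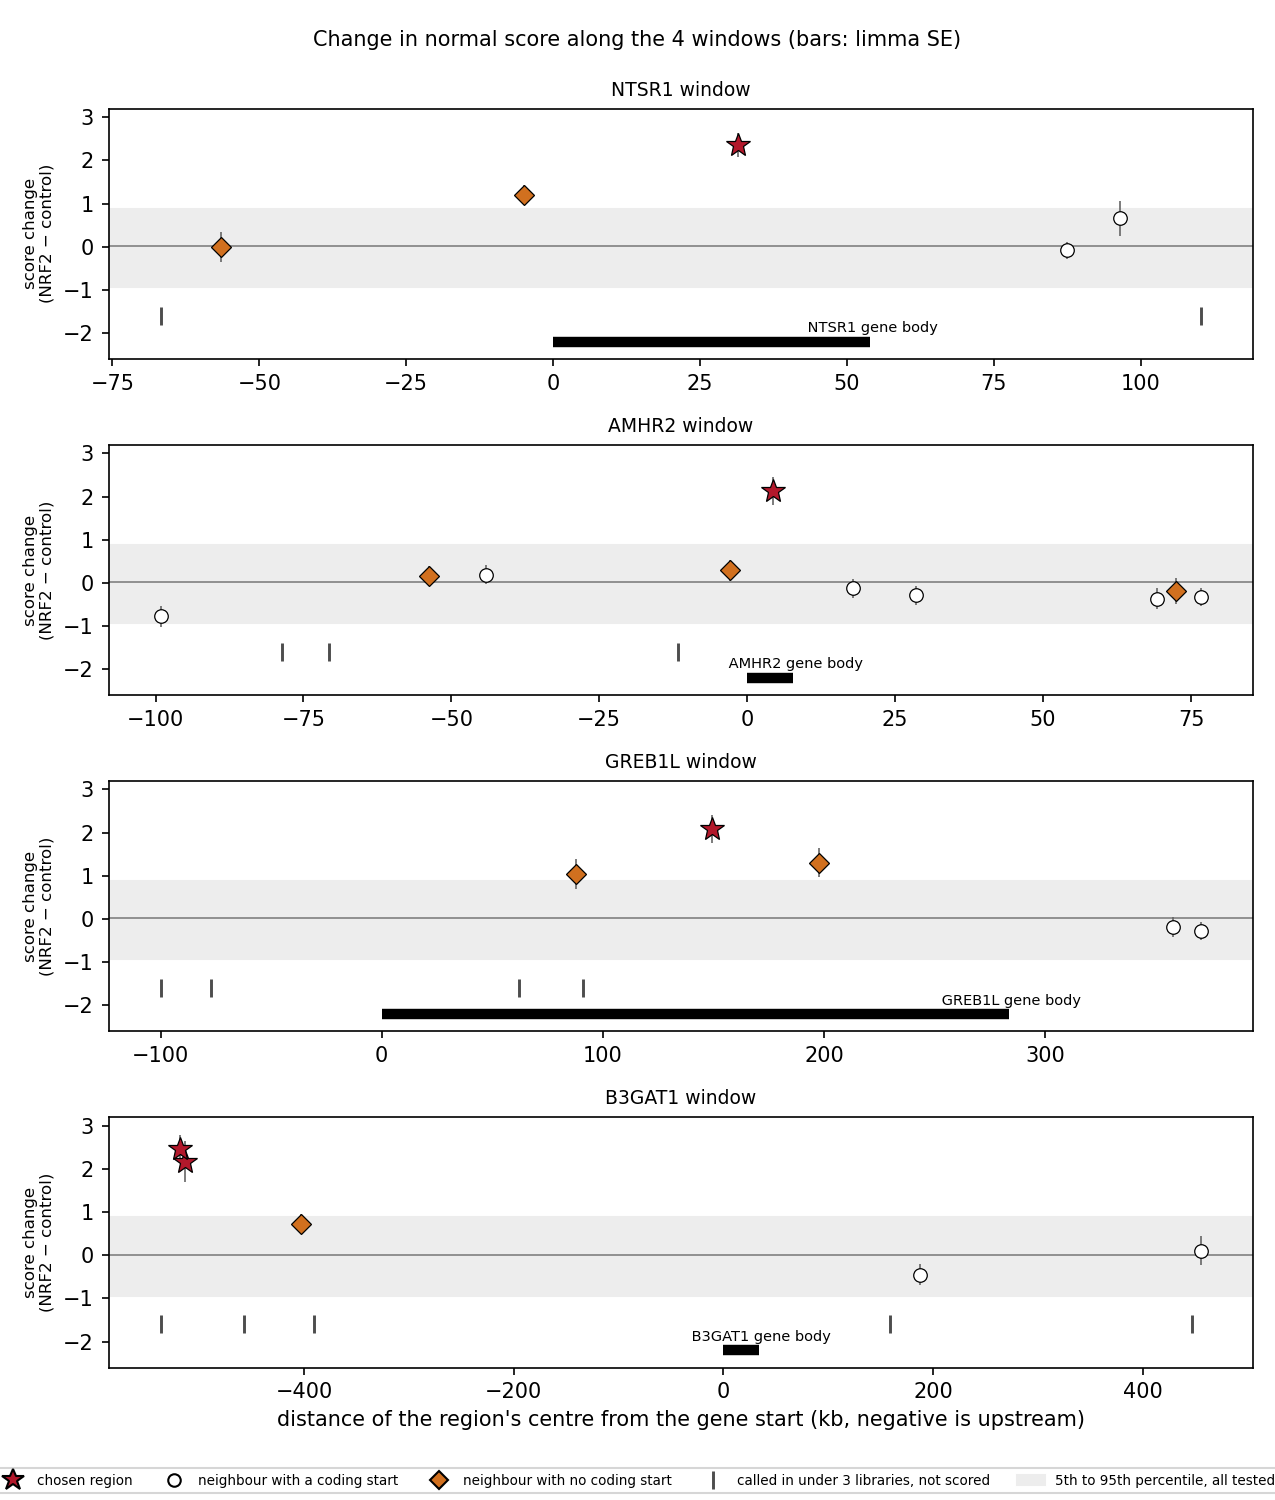
Change in normal score (y axis, NRF2 siRNA minus control siRNA, bars limma SE) against the distance of each region's centre from the gene start (x axis, kb, negative upstream) in the 4 windows. Red stars mark chosen regions, orange diamonds neighbours with no coding start and open circles neighbours with a coding start. Ticks mark regions called in fewer than 3 libraries, and the grey band the 5th to 95th percentile of all tested regions. The largest neighbour rise, 1.31, is at a GREB1L region called in no control library.

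Neighbours with and without a coding start were counted apart. Of 15 neighbours within 500 bp of a coding start, 12 were tested, 3 had a change above 0 and 9 below, 0 were called in either direction, and the median was -0.23. At an unadjusted p of 0.05, 0 of these were higher and 1 was lower. Of 19 neighbours with no coding start, 8 were tested, 6 had a change above 0 and 2 below, 1 was called higher, and the median was 0.51. The 6 include the GREB1L region 198 kb from the start, which no control library called. It was tested only through its NRF2 siRNA calls, so its rise is no support for a difference between the kinds. Over all tested regions the medians were -0.06 with a coding start and 0.08 without, and 0.329% and 2.79% were called higher. Regions with a coding start were 31.7% of all tested regions, 5.18% of those called higher and 11.2% of those called lower. The difference between the 2 kinds of neighbour was not tested, and the groups of regions share their libraries.

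**Figure D3:**
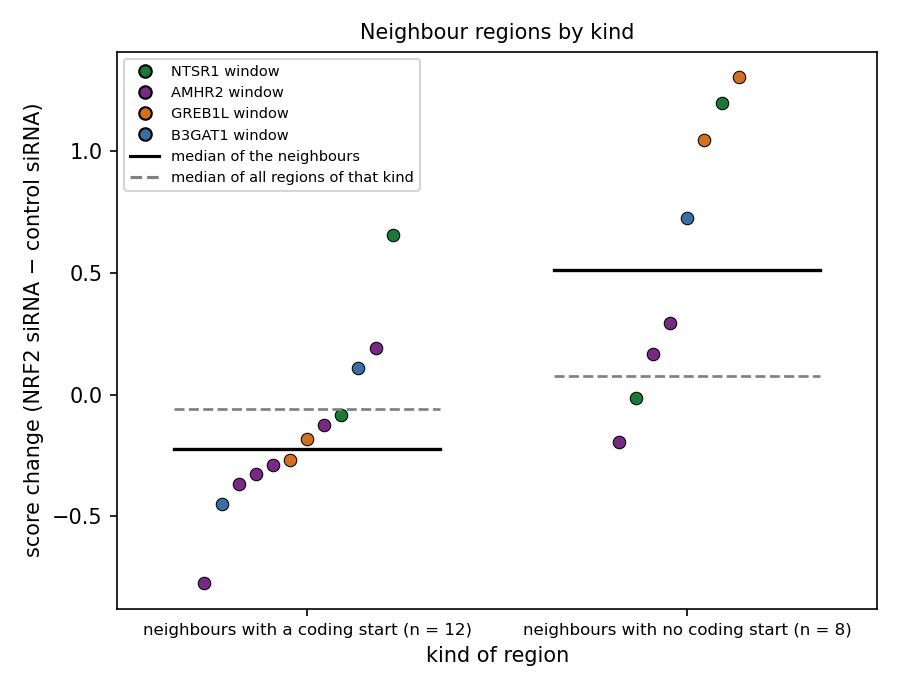
Change in normal score (y axis) of the 12 tested neighbours with a coding start and the 8 without (x axis), 1 point per region, coloured by window. Solid lines are medians of the neighbours, -0.23 and 0.51, and dashed lines medians of all tested regions of that kind, -0.06 and 0.08. The highest point, a GREB1L region, was called in no control library and was tested only through its NRF2 siRNA calls.

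The neighbour called higher lies upstream of NTSR1, at chr20:61334152-61336456, its near edge 3732 bp from the NTSR1 start and in no gene. It was not called in control replicate 1 and stood at percentiles 6.02 and 41.6 in replicates 2 and 3, against 44.3, 63.5 and 61.1 with NRF2 siRNA. The groups did not overlap, although control replicate 3 and NRF2 siRNA replicate 1 were close. The change was 1.20 ± 0.23 (SE; limma, adjusted p = 0.0237), with 1.44, 1.49 and 0.67 in pairs 1 to 3. The call was lost without control replicate 1 (adjusted p = 0.0828), 2 (0.130) or 3 (0.0764) and without NRF2 siRNA replicate 2 (0.107) or 3 (0.0587), and held without NRF2 siRNA replicate 1 (0.0347). Its peaks were 682 and 476 bp long in control replicates 2 and 3 and 1324, 2213 and 2300 bp with NRF2 siRNA.

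At the far side of NTSR1 the picture differed. The start of MRGBP, a subunit of the TIP60 acetyltransferase complex, 87.5 kb downstream of the NTSR1 start, stood at 48.6, 67.0 and 73.8 in control and 51.9, 56.1 and 65.1 with NRF2 siRNA, a change of -0.08 ± 0.20 (SE; limma, adjusted p = 0.855). The start of OGFR, the opioid growth factor receptor, was called in 1 control and 2 NRF2 siRNA libraries. That of SLCO4A1, an organic anion transporter, was called in control replicate 3 alone, as was a region over COL9A3, a collagen chain gene. A region in a SLCO4A1 intron, called in replicates 2 and 3 of both groups, had a change of -0.01 ± 0.35 (SE; limma, adjusted p = 0.989).

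The AMHR2 window is the most gene-dense of the 4, and 7 of its 9 coding genes had a start region. The lowest change of all neighbours was at the start of AAAS, which encodes a nuclear pore protein, 99.1 kb upstream of AMHR2. It stood at 84.1, 90.1 and 96.9 in control and 46.7, 71.8 and 84.1 with NRF2 siRNA, so that the groups met at 84.1 without overlapping. The change was -0.78 ± 0.24 (SE; limma, adjusted p = 0.0985, 0.0310 with the replicate block and 0.0272 with trend and robust moderation), with pairs at -0.75, -0.71 and -0.87. The highest change among AMHR2 neighbours was 0.30 ± 0.25 (SE; limma, adjusted p = 0.528). It belonged to the intergenic region 2047 bp upstream of the AMHR2 start, which ranked high in both groups, at 96.5, 98.6 and 97.9 in control and 95.6, 99.2 and 99.7 with NRF2 siRNA.

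The starts of SP1, a zinc finger transcription factor, and of PRR13, PCBP2, MAP3K12 and TARBP2 were called in all 6 libraries, with changes from -0.37 to 0.19. PCBP2 encodes an RNA-binding protein, MAP3K12 a neuronal stress kinase and TARBP2 a partner of Dicer. None of these passed the test (limma, adjusted p from 0.40 to 0.796). The start of SP7, the osteoblast transcription factor, was called in replicate 3 of each group alone. At PCBP2 alone of these starts the groups did not overlap, at 67.5, 67.1 and 73.1 in control and 43.2, 64.1 and 55.2 with NRF2 siRNA. The remaining tested regions of the window, an intergenic one 53.7 kb upstream and one in a MAP3K12 intron 72.5 kb downstream of the AMHR2 start, had changes of 0.17 and -0.19.

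In the GREB1L window 2 other regions inside the gene had changes above 1, neither of which passed the test as first fitted. The region over coding sequence 198 kb from the start, at chr18:19019072-19020464, was called in no control library and stood at 38.9, 24.7 and 33.7 with NRF2 siRNA. Its change was 1.31 ± 0.34 (SE; limma, adjusted p = 0.0608, 0.00829 with the replicate block and 0.0420 with trend and robust moderation), with 1.36, 1.08 and 1.48 in the pairs. It met the minimum of 3 libraries through the NRF2 siRNA group alone, and its control scores were those of regions with no peak. Its p-values therefore cannot show a rise, and its values are a description. The intronic region 88.1 kb from the start, at chr18:18909149-18911445, was not called in replicate 1 of either group, stood at 15.2 and 24.1 in control replicates 2 and 3 and at 68.4 and 72.8 in the NRF2 siRNA ones. Its change was 1.04 ± 0.35 (SE; limma, adjusted p = 0.113, and 0.0489 with the replicate block), and no peak of siRNA 28 contributed. A further 2 intronic regions of the gene were called only in NRF2 siRNA replicate 3. The intronic region and those called once were named after their values were seen.

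Beyond GREB1L, the starts of ESCO1, a cohesin acetyltransferase, and of SNRPD1, a core protein of the spliceosome, were called in all libraries. ESCO1 stood at 82.9, 66.4 and 84.3 in control and 69.2, 67.9 and 74.5 with NRF2 siRNA, and its change was -0.18 ± 0.24 (SE; limma, adjusted p = 0.714). SNRPD1 stood at 86.0, 80.1 and 87.7 in control and 73.8, 74.5 and 78.4 with NRF2 siRNA, and its change, the lowest in the window, was -0.27 ± 0.21 (SE; limma, adjusted p = 0.50). Its NRF2 siRNA percentiles all lay below its control ones, as in 12.8% of all tested regions.

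In the B3GAT1 window the region nearest to the chosen pair among those tested was a broad domain 403 kb upstream of B3GAT1, at chr11:134679869-134690265, which overlaps the long non-coding RNA gene LINC02714. It stood at 25.1, 65.1 and 64.4 in control and 65.1, 83.6 and 81.6 with NRF2 siRNA, and NRF2 siRNA replicate 1 was just below control replicate 2. The change was 0.72 ± 0.22 (SE; limma, adjusted p = 0.0916), with 0.93, 0.59 and 0.65 in the pairs, and the adjusted p was 0.0438 with the replicate block, 0.0394 with trend and robust moderation and 0.0448 with equal list lengths. The calls also differed in shape. Each control library had 2 separate peaks there that together covered 2584, 3901 and 3446 bp, NRF2 siRNA replicate 1 had 3 that covered 2538 bp, and replicates 2 and 3 had single peaks of 9862 and 10341 bp.

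Downstream of B3GAT1 the shared start of NCAPD3, a condensin II subunit, and VPS26B, a retromer subunit, stood at 84.0, 65.4 and 73.5 in control and 37, 61.4 and 60.0 with NRF2 siRNA. The change was -0.45 ± 0.25 (SE; limma, adjusted p = 0.325), and the groups did not overlap. The start of IGSF9B, a neural adhesion molecule, was called in replicates 2 and 3 of both groups, at 8.42 and 60.3 in control and 40.8 and 30.3 with NRF2 siRNA, a change of 0.11 ± 0.33 (SE; limma, adjusted p = 0.886). The shared start of ACAD8 and THYN1 was called in replicate 3 of each group. No peak lay at the starts of GLB1L2, GLB1L3, JAM3 or SPATA19.

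Across the 4 windows, 17 of the 24 coding genes other than the 4 chosen ones had a start region, against 60.0% of the 19821 coding genes on chromosomes with peaks, and 0 of the 4 did. The start regions tested had changes from -0.78 to 0.66. None passed the test as first fitted, whereas AAAS passed under the other fits given above.

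**Figure D4:**
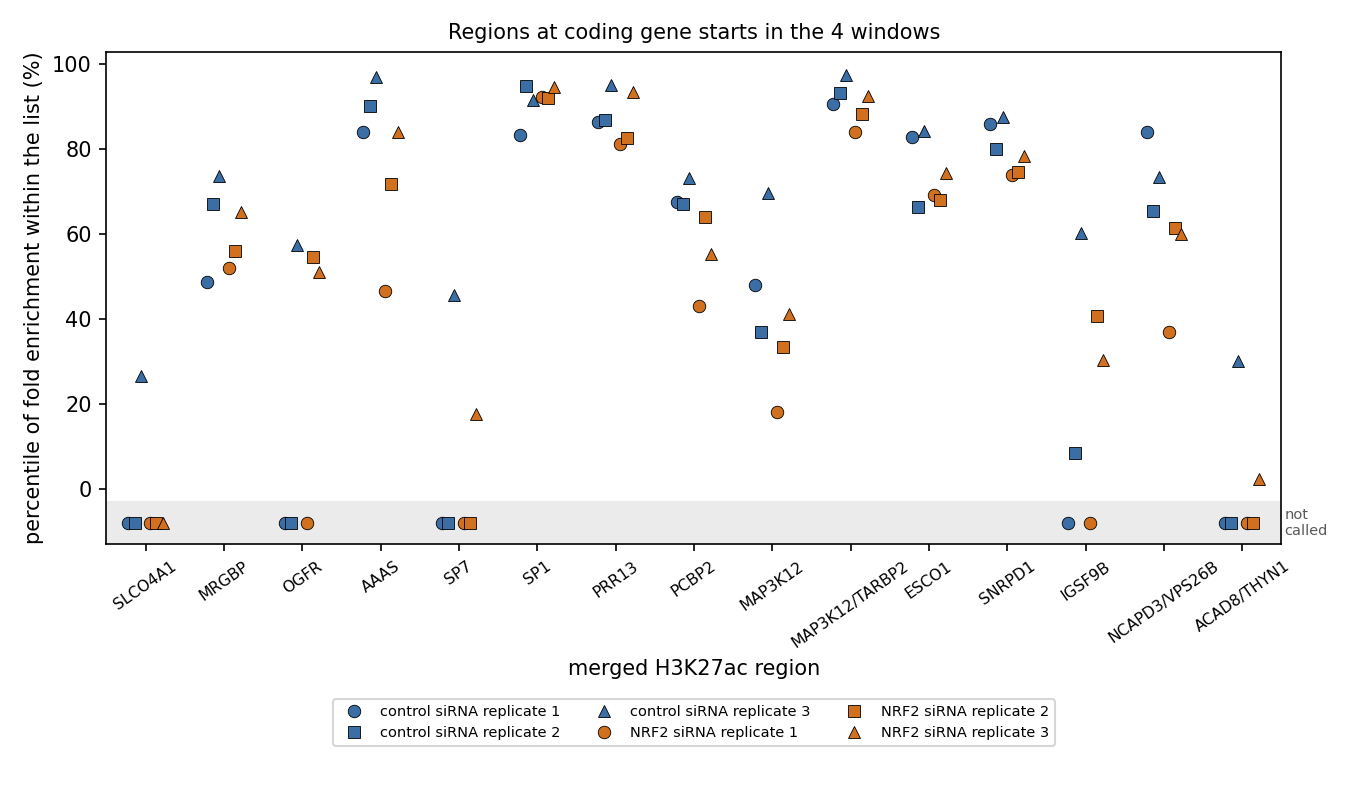
Percentile of fold enrichment within each library's own list (y axis, %) for the 15 regions at coding gene starts in the 4 windows (x axis, named by gene), 1 point per library, control siRNA in blue and NRF2 siRNA in orange, with the grey band for regions not called. No start of NTSR1, AMHR2, GREB1L or B3GAT1 appears because none had a peak, and at AAAS the NRF2 siRNA points, 46.7 to 84.1, lie below the control points, 84.1 to 96.9.

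Regions called in few libraries were not tested. Of the 34 neighbours, 9 were called only in NRF2 siRNA libraries and 3 only in control libraries, as were 13.1% and 18.9% of all 49186 merged regions. Whether these shares differ was not tested. Of the 9, 4 lay in the GREB1L window, 4 in the B3GAT1 window and 1 in the AMHR2 window, and 0 held a coding start. The region 457 kb upstream of B3GAT1 was the best ranked of the NRF2-only regions that were not tested, at 14.3 and 27.7 in NRF2 siRNA replicates 2 and 3. The others not tested stood at percentiles from 0.0942 to 13.5. The control-only regions, 2 in the NTSR1 window and 1 in the GREB1L window, stood at 16.2 to 26.6. An intergenic region 70.7 kb upstream of AMHR2 was called in replicate 3 of both groups, at 43.4 and 53.7. These calls do not weigh equally between groups, as NRF2 siRNA replicate 1 has the shortest list and control replicate 3 the longest.

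The length covered by peaks outside the chosen regions gave 1 value per library and window, in bp per Mb of all peaks in that library. In the GREB1L window it was 27.7, 50.8 and 55.0 in control and 68.1, 82.8 and 84.3 with NRF2 siRNA, so the groups did not overlap. The means were 44.5 ± 14.7 and 78.4 ± 8.96 (SD, n = 3 each), a difference of 33.9 (two-sided exact permutation p = 0.1, 0.2 after adjustment over the 4 windows). It fell to 10.8 with peaks of a q-value of at most 1e-05 and to 10.6 with doubled flanks. In the B3GAT1 window it was 45.5, 56.7 and 56.7 in control and 65.2, 158 and 128 with NRF2 siRNA, with means of 53.0 ± 6.46 and 117 ± 47.5 (SD, n = 3 each) and the same exact p and adjusted p. The broad domain makes up most of the latter in replicates 2 and 3. Without division by the library's total peak length, the groups overlapped in both windows. GREB1L held 1.79, 4.32 and 6.24 kb in control and 3.15, 7.02 and 8.91 kb with NRF2 siRNA (exact permutation p = 0.4). B3GAT1 held 2.95, 4.82 and 6.43 kb in control and 3.02, 13.4 and 13.6 kb with NRF2 siRNA (exact permutation p = 0.3). With 3 libraries against 3, an exact p cannot fall below 0.1. In the GREB1L window, 1024, 1219 and 1275 bp in NRF2 siRNA replicates 1, 2 and 3 came from the region 198 kb from the start, which no control library called. How often windows elsewhere in the genome separate in this way was not computed.

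In the NTSR1 window covered length was 75.2, 60.6 and 79.0 in control and 60.0, 70.5 and 62.5 with NRF2 siRNA, with means of 71.6 ± 9.70 and 64.3 ± 5.45 (SD, n = 3 each; two-sided exact permutation p = 0.3, adjusted 0.4). In the AMHR2 window it was 283, 252 and 229 in control and 342, 245 and 251 with NRF2 siRNA, with means of 255 ± 27.4 and 279 ± 54.6 (SD, n = 3 each; two-sided exact permutation p = 0.7, adjusted 0.7). In both windows the 2 groups overlapped.

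**Figure D5:**
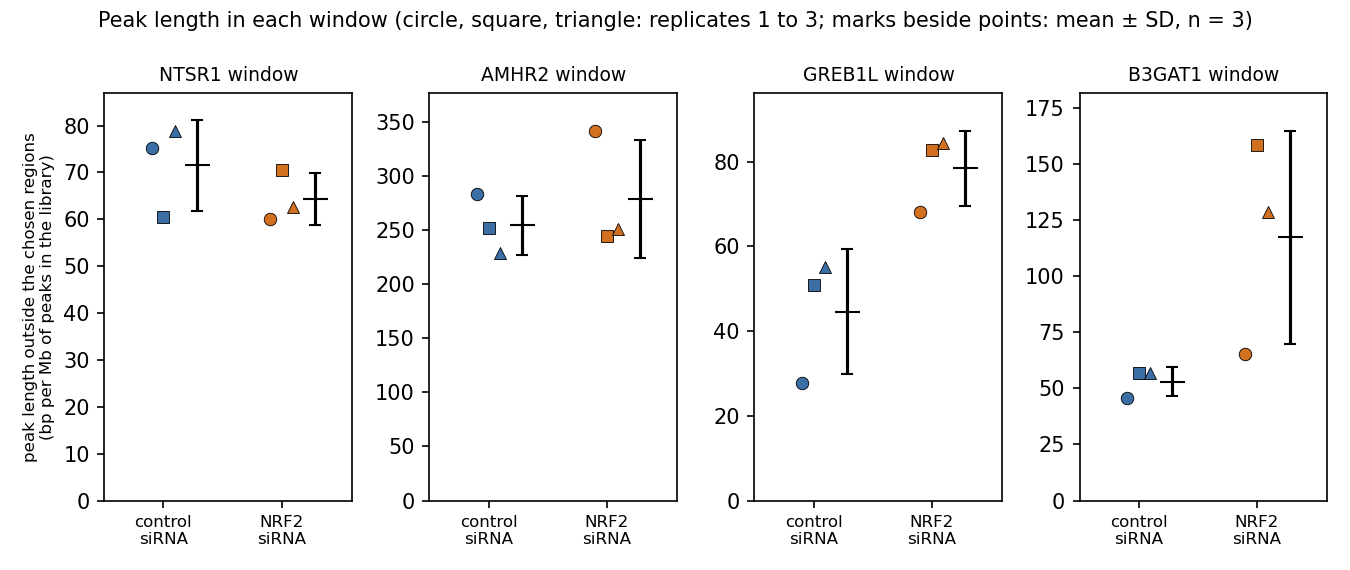
Length covered by peaks outside the chosen regions (y axis, bp per Mb of all peaks in the library) in the 4 windows, by siRNA (x axis), 1 point per library with circle, square and triangle for replicates 1 to 3, and mean ± SD beside the points. On this scale, in the GREB1L and B3GAT1 windows every NRF2 siRNA point lies above every control point, and in the other 2 windows the points overlap. Lengths not divided by the library's total overlap in the GREB1L and B3GAT1 windows too.

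Genes that act with the 4 were examined at their starts, from a list of 14. Among the ligands, NTS, which encodes neurotensin, had a start region in all 6 libraries, at 78.2, 38.6 and 49.8 in control and 42.2, 32.2 and 42.9 with NRF2 siRNA (change -0.29 ± 0.37, SE; limma, adjusted p = 0.699), and AMH, the ligand of AMHR2, had none. Of the other neurotensin receptors, NTSR2 had no peak at its start and SORT1 had one in control replicate 3 alone. The related genes GREB1 and B3GAT2 had none either. Of the 14, 9 were tested, 0 were called higher and 1 lower, against 0.329% and 1.20% of all tested regions with a coding start.

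The call was ACVR1, a type I receptor that pairs with AMHR2. Its best-ranked start region, chr2:158692970-158699662, stood at 74.7, 80.1 and 78.1 in control, was not called in NRF2 siRNA replicate 1 and stood at 38.8 and 43.4 in replicates 2 and 3. The groups did not overlap, and the change was -1.26 ± 0.22 (SE; limma, adjusted p = 0.0185). The call was lost without control replicate 1 (adjusted p = 0.0615), 2 (0.102) or 3 (0.0867) and without NRF2 siRNA replicate 2 (0.0657) or 3 (0.0519), and held without NRF2 siRNA replicate 1 (0.0206). The other type I receptors BMPR1A and BMPR1B, the signal transducers SMAD1, SMAD5 and SMAD4, and the glucuronyl- and sulfotransferase genes B3GAT3 and CHST10 had adjusted p (limma) from 0.356 to 0.941. B3GAT3 makes the linker of proteoglycans and CHST10 adds the sulfate of HNK-1.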

How the data were processed

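H3K27ac was measured by ChIP-seq in 3 control siRNA and 3 NRF2 siRNA libraries of A549 cells, grouped by the sample titles and conditions. Per the study's methods, the authors mapped the reads to hg19 (Bowtie2 2.2.6), filtered them by mapping quality (SAMtools), ran MACS2 2.1.0.20151222 on every library separately and left out blacklisted peaks. Each deposited peak has an integer score, a fold enrichment (a ratio over background), and its p-value and q-value written as −log10. Without read counts, no interval that needs depth is given. Which input served as background is not given in the sources used here, and the 2 input samples had no file and were not analysed here.

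Peaks overlapping by at least 1 bp were merged. Windows, exons and starts were taken from a GENCODE annotation on GRCh37, whose sequence held all 24 chromosomes with peaks, and 0 of these had a peak past its end. Scores were fitted with limma 3.58.1 in R 4.3.3 (lmFit, eBayes, Benjamini-Hochberg adjustment over all 32673 tested regions), and covered length was compared by exact permutation. Other steps used Python 3.11.15, numpy 2.4.6, pandas 2.3.3, scipy 1.17.1 and matplotlib 3.10.9. The fit of NRF2 siRNA against control siRNA was tested on simulated scores of 32673 regions. When 200 regions were shifted by 2 units it found 63.5% of them and made 6 false calls, and when they were shifted by 1 unit it found 0% and made 0. The simulated scores held no tied values for uncalled regions, so these figures do not describe regions uncalled in some libraries.

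Libraries with the same number varied together around their group means (r = 0.398, 0.199 and 0.363 for pairs 1 to 3), and the numbers, which come from the sample titles, pair the libraries. The study describes the 3 pairs as independent experiments. A flow cell identifier stands in the peak names of replicates 2 and 3 but not of replicate 1, so pair 1 is given apart from pairs 2 and 3.

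The loci, windows and gene lists were chosen with earlier results of these data known. Regions named were the chosen ones, neighbours past the threshold, the highest and lowest neighbour of each window, gene starts by counts and range, and listed partner genes past the threshold or with no call. The endothelial marker PECAM1 was not analysed here, and the sequences of the AMHR2 and GREB1L windows are not reported here. Alternatives changed list length, q-value, pairing, the regions tested, merging, the value of a region, the moderation and the windows, and left out each library.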

Additional observations from a re-analysis of the deposited data

Results flagged for a closer look

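In 2 neighbours the change with siRNA 28 (pair 1) went the other way from both pairs with siRNA 30. In the intergenic region 2047 bp upstream of the AMHR2 start, pair 1 gave -0.022 against 0.20 and 0.72 in pairs 2 and 3. At the start of MRGBP in the NTSR1 window, pair 1 gave 0.25 against -0.29 and -0.21. The difference between siRNA 28 and siRNA 30 was tested as a difference of changes in limma over all regions, and it did not pass for either (adjusted p = 0.552 and 0.463). With 1 pair of siRNA 28, siRNA, replicate and read depth cannot be told apart. The study reports fewer mapped reads for both libraries of this pair than for any other H3K27ac library.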

How the results depend on the processing

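The number of neighbours called higher, 1 of 20 tested, was 2 with equal list lengths, 0 at a q-value of at most 1e-05, 4 with the replicate block, 2 with the replicate block and equal list lengths, 0 when only regions called in all 6 libraries were tested, 3 with trend and robust moderation, and 0 to 2 when a library was left out: 2 without NRF2 siRNA replicate 1 and 0 without any other single library. The number called lower, 0, was 1 with the replicate block, alone or with equal list lengths, with trend and robust moderation and with windows of doubled flanks, and 0 to 0 when a library was left out. The median change of the neighbours, -0.05, was -0.27 over regions called in all 6 libraries and -0.16 to 0.07 when a library was left out. Fewer regions were tested under the stricter settings, and for the other settings the cause was not tested. Among the 20 tested neighbours and 9 tested partner genes, the replicate block changed no other call than those given beside the results above. The ACVR1 alternatives were chosen after seeing the data, and those that kept all libraries and could test it gave adjusted p from 0.00306 to 0.041.

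The difference in covered length in the NTSR1 window, -7.23 bp per Mb, was 10.1 at a q-value of at most 1e-05 and 5.14 with doubled flanks, and -12.7 to -3.54 when a library was left out. In the AMHR2 window, 24.7 became -12.8 with doubled flanks and -0.84 kb without division by the list's covered length, and ran from -6.75, without NRF2 siRNA replicate 1, to 42.1 when a library was left out. The cause was not tested. In the GREB1L window 33.9 became 10.8 at a q-value of at most 1e-05 (exact p = 0.6) and 10.6 with doubled flanks (exact p = 0.7). In the GREB1L and B3GAT1 windows it kept its sign under each of these settings, with 25.4 to 39.1 and 43.8 to 90.3 when a library was left out. Without division by the list's covered length the differences in these windows were 2.24 and 5.27 kb (exact p = 0.4 and 0.3), and the groups overlapped. The absence of peaks at the 4 genes' own starts was fixed by the lists, which no setting adds peaks to. Of the chosen regions, the farther B3GAT1 region changed by 1.94 at a q-value of at most 1e-05 and the AMHR2 region by 2.84 over regions called in all 6 libraries. The lists hold no depth, and a region called in no control library may lie just below the peak caller's limit.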
